A study of Nematostella vectensis with 10 samples.

Results

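*TSP1* (NVE8009), *TLL1* (NVE2832) and *TBX5A* (NVE21767) are 3 of the 25729 gene models counted in larvae of the sea anemone *Nematostella vectensis*. They were taken by identifier because the study shows them by *in situ* hybridisation as spot genes, expressed within the apical cells that carry the ciliary tuft. All 3 passed the filter on low counts, as did 21683 gene models in all. The names come from the study's figure and stand for similarity to proteins of other animals, and orthology was not examined here. Gene coordinates, lengths and sequences are not given, because none of the 3 identifiers was found in the RefSeq gene table used here. Levels are therefore compared within a gene and not between genes.

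There were 3 apical libraries from late planulae at 75 to 85 h post fertilisation, 2 apical libraries from mid-planulae at 50 to 60 h, 3 body libraries from late planulae and 2 body libraries from mid-planulae. The larvae came from polyps spawned in the laboratory, and the labels name no strain, genotype or treatment; they call the apical tissue aboral and the mid-planula planula. Apical tissue was the microdissected piece with the apical organ, body was the remainder of the same kind of larva, and each library held tissue pooled from several batches of larvae. A pooled piece holds several cell types, so a level is an average over them, and *p*-values measure only the spread between such pooled libraries.

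The apical organ of the *Nematostella* larva, proposed to be sensory, lies at the pole that leads in swimming. The study describes it as a spot of tuft-bearing cells with a surrounding ring of larval neurons. Thrombospondins, to which the name *TSP1* points, are secreted calcium-binding glycoproteins of the extracellular matrix that act on cell attachment. Tolloid-like proteases, to which the name *TLL1* points, are secreted metalloproteases that in vertebrates process procollagens and cleave the BMP antagonist chordin. *TBX5A* is named after a zebrafish T-box transcription factor with known roles in heart and pectoral fin development in vertebrates. Neither membership of these families nor a role of these 3 genes in the apical tuft is assumed below.

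The counts assigned to gene models ranged from 14364093 to 27730410 per library, and levels are given as counts per 1000000 (CPM) after edgeR's TMM normalisation, the trimmed mean of M-values. The TMM factors were 0.742 to 1.07 in the late planula and 1.07 to 1.27 in the mid-planula, and the 100 largest genes held 36.3% to 46.7% and 30.5% to 34.5% of the counts. The tissue labels were checked against markers named in the study. The 4 markers of gland/secretory cell type 4, a pharyngeal cell type of the body, summed to 6.63 to 25.3 CPM in apical libraries and to 1181 to 3369 CPM in body libraries. By these markers no library went against its label. The 5 other spot genes summed to 347 to 621 CPM in apical and to 1.01 to 10.8 CPM in body libraries. The study picked them from the apically enriched genes of these same libraries, so they do not check the labels. No 2 replicates held the same library: the chi-square statistic between their counts, divided by its degrees of freedom, was 33.5 to 117.

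The first question was where along the larva these genes were expressed. All 3 were higher in every apical library than in any body library, by 4.89 times (*TSP1*), 6.57 times (*TLL1*) and 5.40 times (*TBX5A*) between the lowest apical and the highest body library. The study picked the 3 genes from those enriched in the apical tissue of these same libraries. Their tissue difference is therefore given as a description without a test. In bulk tissue, fewer cells of a type and less RNA per cell cannot be told apart.

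*TSP1* had 4197, 6305 and 2511 counts in late planula apical replicates 1, 2 and 3, and 7884 and 4142 counts in mid-planula apical replicates 1 and 2. The body libraries had 306, 692 and 682 counts in the late planula and 1056 and 678 counts in the mid-planula. In CPM these were 231, 284 and 187 in late planula and 273 and 270 in mid-planula apical tissue. In the body they were 22.1, 33.2 and 26.7 CPM in the late planula and 38.2 and 30.3 CPM in the mid-planula. Apical libraries averaged 249 ± 40.3 CPM and body libraries 30.1 ± 6.14 CPM (SD, n = 5 each), and the body kept 12.1% of the apical level. By group means, the order of levels was mid-planula apical, late planula apical, mid-planula body and late planula body. The ranges of the 2 stages overlapped in either tissue, and only the step between the tissues was wider than the spread.

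*TLL1* had 4495, 2854 and 2957 counts in late planula and 3275 and 2775 counts in mid-planula apical tissue. The body counts were 239, 211 and 230 in the late planula and 245 and 196 in the mid-planula. The apical levels were 247, 129 and 220 CPM in the late planula and 114 and 181 CPM in the mid-planula, so they varied more between replicates than those of *TSP1*. The body levels were 17.3, 10.1 and 8.99 CPM in the late planula and 8.87 and 8.77 CPM in the mid-planula. Late planula body replicate 1 stood above the other body libraries. Apical libraries averaged 178 ± 57.4 CPM and body libraries 10.8 ± 3.66 CPM (SD, n = 5 each), and the body level was 6.06% of the apical one. The order of the group means was late planula apical, mid-planula apical, late planula body and mid-planula body, and the stages overlapped in the apical tissue. In the body they did not, but the lowest late planula value (8.99 CPM) was close to the highest mid-planula value (8.87 CPM).

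*TBX5A* had 3478, 2888 and 1609 counts in late planula and 4338 and 2648 counts in mid-planula apical tissue. In the body there were 63, 191 and 238 counts in the late planula and 428 and 496 counts in the mid-planula. The apical levels were 191, 130 and 120 CPM in the late planula and 150 and 173 CPM in the mid-planula, which overlap. The body levels were 4.56, 9.15 and 9.30 CPM in the late planula and 15.5 and 22.2 CPM in the mid-planula, which do not. Stages that do not overlap were common in such small groups, at 36.2% of all tested genes in the body, where 2 of the 3 genes did so, and at 32.9% in the apical tissue, where 0 of 3 did. Apical libraries averaged 153 ± 29.6 CPM and body libraries 12.1 ± 6.83 CPM (SD, n = 5 each). The body level was 5.21% of the apical level in the late planula and 11.7% in the mid-planula. The corresponding shares were 11.7% and 12.6% for *TSP1*, and 6.10% and 5.98% for *TLL1*.

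**Figure D1:**
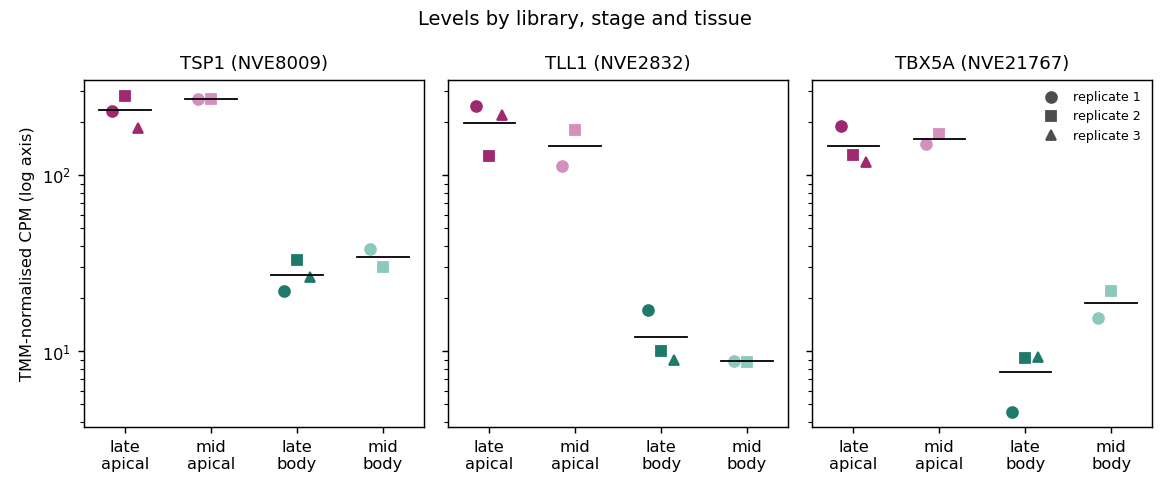
Level of each gene (TMM-normalised CPM, log axis) in each library, with late planula apical, mid-planula apical, late planula body and mid-planula body from left to right. Points are libraries, symbols are replicate numbers and lines are group means. All apical libraries lie above all body libraries for each gene, and the body libraries do not overlap by stage for *TBX5A* and, narrowly, for *TLL1*, as is so for 36.2% of all tested genes.

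The counting error of a single value, taken as the square root of the count, was 1.13% for the largest count (7884) and 12.6% for the smallest (63). The low counts of each library were mostly even numbers, at 70.3% to 83.9% of counts of 1 to 20, so both mates of a read pair may have been counted and the counting error may be larger. The spread between replicates was the wider one, with a biological coefficient of variation of 22.1% for *TSP1*, 27.8% for *TLL1* and 26.1% for *TBX5A* (edgeR), against a median of 33.3% over all tested genes.

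The replicate numbers were not shown to pair apical with body libraries, so the ratio was taken over every combination of an apical and a body library of one stage. These combinations share libraries and are given as ranges only. For *TSP1* the apical level was 5.64 to 12.9 times the body level over the 9 late planula combinations and 7.07 to 9.01 times over the 4 mid-planula combinations. For *TLL1* the ratio was 7.45 to 27.5 in the late planula and 12.8 to 20.6 in the mid-planula. The mid-planula ratios of both genes thus lay within the late planula range. For *TBX5A* the ratio was 12.9 to 42.0 in the late planula and 6.78 to 11.2 in the mid-planula, so that the stages did not overlap. The share of all tested genes whose ratios separate by stage was not counted, so this is a description only. The largest *TBX5A* ratio rested on late planula body replicate 1, which held 63 counts.

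The fitted log2 fold changes of apical over body, with the stages pooled, were 3.05 (standard error 0.21) for *TSP1*, 4.05 (0.30) for *TLL1* and 3.65 (0.36) for *TBX5A*. These ranked 73, 31 and 44 among the 21683 tested genes, of which the median was -0.04. In the late planula the values were 3.10 (0.25), 4.04 (0.35) and 4.25 (0.33), and in the mid-planula 2.99 (0.30), 4.06 (0.43) and 3.10 (0.38), in the same order of genes. All 3 genes were among those called higher in the apical tissue by edgeR at an adjusted *p*-value under 0.05, which were 5.43% of the genes tested with the stages pooled, 4.61% in the late planula and 1.75% in the mid-planula. As the genes were chosen for this pattern, nothing is read from that count. Leaving out late planula body replicate 1 gave 4.28 for *TLL1* and 3.45 for *TBX5A* with the stages pooled.

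The 3 genes kept more signal in the body than the 5 other spot genes did. The body mean of the other spot genes was 0.247% to 3.45% of their apical mean, with *NVE27* lowest and *NVE18750* highest. *ISX-like* (NVE14554), the paired-class homeobox gene of the tuft cells, stood at 0.883%, averaging 395 ± 104 CPM in apical and 3.49 ± 3.33 CPM in body libraries (SD, n = 5 each). The 4 ring genes, which mark the larval neurons around the spot, had shares of 3.57% (*Slc*, NVE8226) to 12.2% (*NVE4712*), so the 6.06% to 12.1% of the 3 genes fell within the range of the ring genes. These are shares of single genes, which are not replicates, and no test was made. In late planula body replicate 1, 3 of the 5 other spot genes had no count, while *TSP1*, *TLL1* and *TBX5A* had 306, 239 and 63 counts. Those without a count (*NVE27*, *NVE10492* and *NVE2235*) averaged only 12.3 to 14.6 CPM in apical libraries, against 153 to 249 CPM for *TSP1*, *TLL1* and *TBX5A*. Their zeros therefore also depend on this low level. The median fitted log2 fold change with the stages pooled was 3.65 for the 3 genes, against 6.23 for the other spot genes and 4.01 for the ring genes. The study picked these lists from the same apically enriched genes.

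The second question was whether the level of these genes in either tissue differed between late and mid-planulae, for which they were not chosen. All 10 libraries were fitted as 4 groups with edgeR's quasi-likelihood test, and *p*-values were adjusted over the 21683 genes (Benjamini-Hochberg). In the apical tissue none of the 3 genes was called, where 2.10% of all tested genes were. *TSP1* had a late over mid-planula log2 fold change of -0.22 (95% interval -0.77 to 0.34, adjusted *p* = 0.743, edgeR). *TLL1* had 0.43 (-0.31 to 1.18, adjusted *p* = 0.591, edgeR) and *TBX5A* -0.14 (-0.82 to 0.55, adjusted *p* = 0.890, edgeR). The unadjusted *p*-values were under 0.05 for 0 of the 3 genes, and the DESeq2 Wald test and limma-voom also called 0 of 3. The intervals leave room for changes of up to about 1.18 on the log2 scale in *TLL1*. None of the 5 other spot genes and none of the 4 ring genes was called in the apical tissue either by edgeR, DESeq2 or limma-voom. Among all tested genes, DESeq2 called 926 higher and 564 lower there, and limma-voom 206 and 173. Without adjustment, 0 spot genes and 1 ring gene had an edgeR *p*-value under 0.05, as did 3543 of the 21683 tested genes.

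In the body, 2.63% of all tested genes differed between the stages, 1.98% being higher and 0.650% lower in the late planula, and 0 of the 3 genes passed the test. *TBX5A* came closest. It averaged 7.67 ± 2.70 CPM in the late planula body (SD, n = 3) and 18.8 ± 4.74 CPM in the mid-planula body (SD, n = 2), a log2 fold change of -1.28 (95% interval -1.98 to -0.59, unadjusted *p* = 0.00161, adjusted *p* = 0.0544, edgeR). It was lower in 3 of 3 late planula libraries. Its adjusted *p*-value was 0.00825 with the DESeq2 Wald test and 0.0570 with limma-voom, and ranged from 0.00825 to 0.494 over all alternatives. Without late planula body replicate 1 the log2 fold change was -1.03 (adjusted *p* = 0.0856, edgeR), and without late planula apical replicate 2, which enters only the estimate of spread and the normalisation, the adjusted *p*-value was 0.0474.

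The other 2 genes had intervals that include 0 in the body. *TSP1* had a log2 fold change of -0.33 (95% interval -0.88 to 0.23, adjusted *p* = 0.565, edgeR), with 27.3 ± 5.54 CPM in the late planula (SD, n = 3) and 34.3 ± 5.57 CPM in the mid-planula (SD, n = 2). *TLL1* had 0.45 (-0.32 to 1.22, adjusted *p* = 0.565, edgeR), with 12.1 ± 4.50 CPM in the late planula and 8.82 ± 0.0675 CPM in the mid-planula. Its value came largely from late planula body replicate 1, as it was 0.12 without that library (adjusted *p* = 0.910, edgeR).

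**Figure D2:**
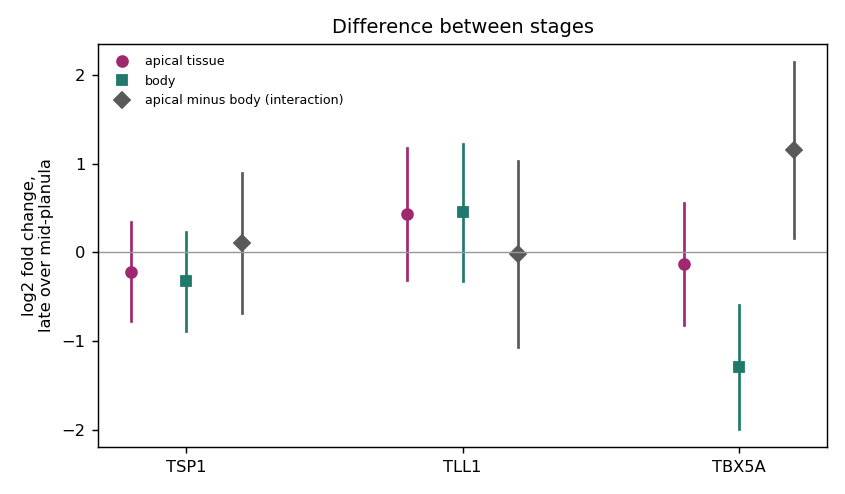
Late over mid-planula log2 fold change of each gene in the apical tissue, in the body, and their difference (interaction), with 95% intervals from edgeR's quasi-likelihood fit of 10 libraries. The interval of *TBX5A* in the body, -1.98 to -0.59, lies below 0, but its adjusted *p*-value of 0.0544 did not pass the threshold.

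The 5 other spot genes summed to 1.01, 3.16 and 2.03 CPM in the late planula body libraries and to 5.97 and 10.8 CPM in the mid-planula body libraries. Most of each sum was *ISX-like*, at 0.868, 2.78 and 1.02 CPM in the late planula and 3.73 and 9.04 CPM in the mid-planula body. The late over mid-planula log2 fold change in the body was below 0 for 5 of 5 of them, with a median of -1.58, where the median of all tested genes was -0.01. Some of these values rest on very few counts. *NVE27* had 0 and 2 counts in the mid-planula and 0, 0 and 2 in the late planula body (log2 fold change -0.27, 95% interval -3.46 to 2.92). *NVE2235* had 16 and 4 counts, against 0, 0 and 8. Of the 5 other spot genes, *NVE10492* fell (adjusted *p* = 0.0194, edgeR), with 0 counts in all 3 late planula body libraries against 8 and 10 counts in the mid-planula body libraries. With a floor of 3 counts over the late planula group it was 7.40-fold lower. This value leaves out the spread between replicates and would be smaller if both mates of a pair were counted. With this gene at that floor the median of the list was still -1.58. The log2 fold change was -2.01 for *ISX-like* (adjusted *p* = 0.0505, edgeR) and -1.56 for *NVE18750* (adjusted *p* = 0.0684, edgeR), so neither passed. DESeq2 called 3 of the 5 other spot genes and limma-voom 0. Over all tested genes DESeq2 called 498 lower and 1267 higher, and limma-voom 333 and 730. Without late planula body replicate 3, edgeR called 0 of the 5, with 3 lower and 75 higher over all tested genes. The 4 ring genes also had values below 0, of -0.97 to -0.07, and none was called (edgeR, and 0 with DESeq2 and limma-voom). At an unadjusted edgeR *p*-value under 0.05 there were 0 of the 4, against 3777 of the 21683 tested genes. The summed ring genes had 123, 100 and 91.2 CPM in the late planula body and 120 and 179 CPM in the mid-planula body. How much apical tissue remained on each body piece is not known, and its part in the level of *TBX5A* was not tested.

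Late planula body replicate 1 differed from the other body libraries in several apical genes. Of the 5 body libraries it held the highest level of *TLL1* (17.3 CPM) and the lowest levels of *TSP1* (22.1 CPM) and *TBX5A* (4.56 CPM), and the lowest sum of the other spot genes (1.01 CPM). Its *TLL1* count of 239 lay within the 196 to 245 counts of the other body libraries, and its total was the smallest of them. Without the TMM factors its *TLL1* level was 14.3 CPM, against 8.29 to 11.2 CPM in the other body libraries. Whether the high level was particular to *TLL1* was not tested. This library also held the highest body level of 1 of the 4 ring genes, *Slc*. That lead was narrow, at 22.6 CPM against 22.4 CPM in mid-planula body replicate 2. Of the body libraries, late planula body replicate 1 was also highest for 1 of the 2 apical neuropeptide genes named in the study. It held the highest body level of all 4 gland/secretory markers of types 1 and 2. It held that of 3 of the 4 type 4 markers, but of none of the 5 other spot genes and none of the 2 type 3 markers. The share of all tested genes that were highest in this library was not counted. Its TMM factor of 0.828 also raised its CPM, so these counts are a description only. The neuropeptide genes (*PRGamide*, NVE226, and NVE3775, named *RPamide III* there) summed to 207 CPM in this library, against 63.5 to 90.7 CPM in the other body libraries. The markers of gland/secretory type 1 summed to 32.2 CPM, against 15.6 to 23.1 CPM, and those of type 2 to 43.2 CPM, against 19.9 to 37.5 CPM. In apical libraries the sums were 150 to 510 CPM for the neuropeptide genes, 76.3 to 181 CPM for type 1 and 134 to 360 CPM for type 2. *PRGamide* made up nearly all of the neuropeptide sum, at 331 ± 151 CPM in apical and 93.2 ± 56.3 CPM in body libraries (SD, n = 5 each), while NVE3775 stood at 9.34 ± 3.06 CPM in apical and 12.1 ± 3.02 CPM in body libraries. The part of these cell types in the level of *TLL1* was not tested.

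**Figure D3:**
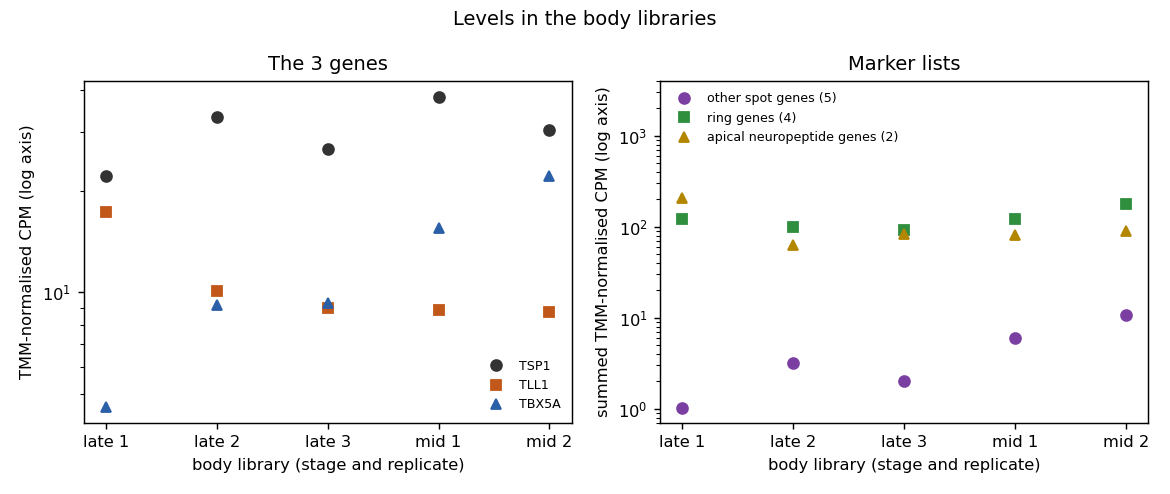
Levels in the 5 body libraries (TMM-normalised CPM, log axes), with the late planula libraries to the left of the mid-planula libraries; the left panel has the 3 genes and the right panel the summed CPM of 3 marker lists (number of genes in brackets). *TBX5A* and the other spot genes are lowest in late planula replicate 1, at 4.56 and 1.01 CPM, where *TLL1* and the neuropeptide genes are highest, at 17.3 and 207 CPM.

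A change of the apical to body difference with stage was tested as the interaction of stage and tissue, in which 0.0231% of all genes were called. None of the 3 genes was. *TBX5A* had a larger apical excess in the late planula by 1.15 on the log2 scale (95% interval 0.16 to 2.14, unadjusted *p* = 0.0261, adjusted *p* = 1.0, edgeR). The value was 0.11 (-0.68 to 0.90) for *TSP1* and -0.020 (-1.07 to 1.03) for *TLL1*, both with an adjusted *p*-value of 1.0 (edgeR). At an unadjusted *p*-value under 0.05 there was 1 of the 3 genes with edgeR, against 875 of the 21683 tested genes. The DESeq2 Wald test and limma-voom called 0 of 3. The other spot genes had interactions above 0 in 5 of 5 cases, with a median of 1.84 against 0.056 over all tested genes. The median was the same with *NVE10492* at its floor, and *NVE27* and *NVE2235* had few body counts. Of the 5, edgeR called 0 (3 at an unadjusted *p*-value under 0.05), DESeq2 called 1 and limma-voom 0. Over all tested genes DESeq2 called 13 above 0 and 94 below 0, and limma-voom 0 and 1.

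The third question was whether the 3 genes differed from each other in how strongly they were enriched. The ratio of the counts of 2 genes within a library needs no normalisation, and the unknown gene lengths cancel when the ratio is compared between tissues. The 3 pairs of genes were compared over 5 apical and 5 body libraries with a two-sided exact permutation test, for which the smallest possible *p*-value is 0.00794. The 2 stages were permuted together, so differences between stages entered the spread. No pair passed after adjustment over the 3 pairs.

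The *TLL1* to *TSP1* count ratio was 1.07, 0.453 and 1.18 in late planula and 0.415 and 0.670 in mid-planula apical tissue. In the body it was 0.781, 0.305 and 0.337 in the late planula and 0.232 and 0.289 in the mid-planula. Only late planula body replicate 1 reached into the range of the apical libraries. On the log2 scale the mean was -0.53 ± 0.69 in apical and -1.51 ± 0.67 in body libraries (SD, n = 5 each), so *TLL1* exceeded *TSP1* in enrichment by 1.97 times, with an exact permutation *p* = 0.0556 and an adjusted *p* = 0.107. Without late planula body replicate 1 the difference was 1.26 on the log2 scale (exact permutation test, adjusted *p* = 0.0714).

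The *TBX5A* to *TSP1* ratio was 0.829, 0.458 and 0.641 in late planula and 0.550 and 0.639 in mid-planula apical tissue. In the body it was 0.206, 0.276 and 0.349 in the late planula and 0.405 and 0.732 in the mid-planula. The tissues separated in the late planula and overlapped in the mid-planula. The enrichment of *TBX5A* was 1.71 times that of *TSP1* over all libraries (exact permutation *p* = 0.0714, adjusted *p* = 0.107). One library decided this call, as without mid-planula body replicate 2 the log2 difference was 1.03 in place of 0.77, with an adjusted exact permutation *p* of 0.0238. That was the largest of the values with each library left out, 0.57 to 1.03. Leaving out this library also changed the mix of stages in the body.

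The *TLL1* to *TBX5A* ratio was 1.29, 0.988 and 1.84 in late planula apical tissue and 0.755 and 1.05 in mid-planula apical tissue. It was 3.79, 1.10 and 0.966 in the late planula body and 0.572 and 0.395 in the mid-planula body. Between the tissues the mean log2 ratio differed by 0.20 (exact permutation *p* = 0.754, adjusted *p* = 0.754), and the difference was -0.12 without mid-planula body replicate 2. In the body all late planula ratios were above both mid-planula ratios. With 2 mid-planula libraries no exact test of a stage difference can pass, and none was made.

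**Figure D4:**
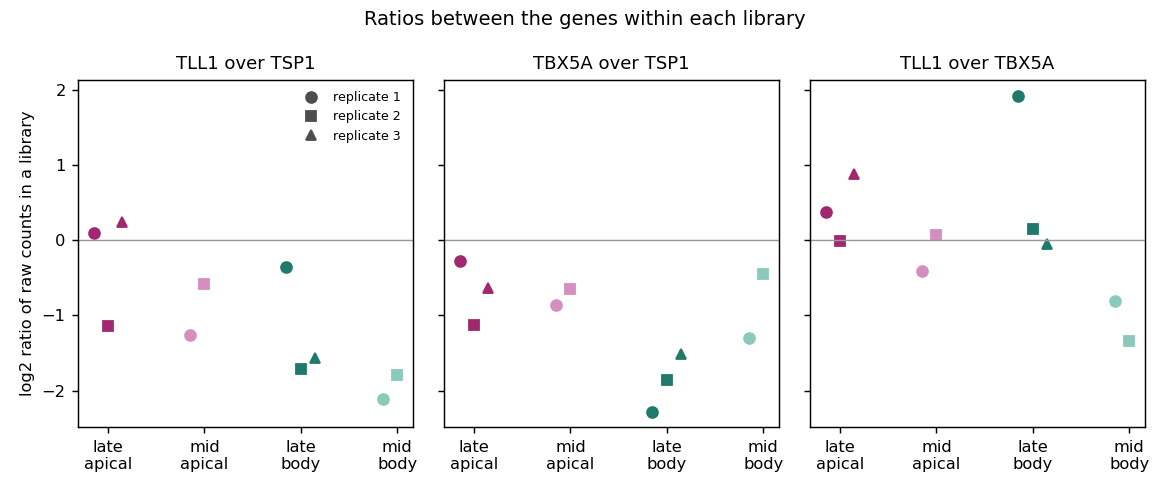
Log2 ratio of the raw counts of 2 genes within each library, for late planula apical, mid-planula apical, late planula body and mid-planula body libraries from left to right; symbols are replicate numbers. *TLL1* over *TBX5A* is highest in late planula body replicate 1, at 1.92.

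The genes with the most similar profiles were looked up among all 21683 tested genes, by the root mean square difference of log2 CPM over the 10 libraries after each gene was centred on its own mean. The tissue difference that all apically enriched genes share weighs heavily in this measure, so it is given as a description. Nearest to *TSP1* were *NVE19736* (0.17), *NVE16373* (0.30) and *NVE19508* (0.32), where each value is the root mean square difference in log2 units. *NVE19736* averaged 413 ± 66.6 CPM in apical and 61.1 ± 16.9 CPM in body libraries (SD, n = 5 each). Nearest to *TLL1* were *NVE236* (0.33), *NVE3584* (0.34) and *NVE237* (0.36). *NVE236* averaged 180 ± 53.3 CPM in apical and 15.2 ± 5.86 CPM in body libraries. Nearest to *TBX5A* were *NVE15867* (0.33), *NVE3125* (0.49) and *NVE25769* (0.50), and *NVE15867* averaged 41.9 ± 11.4 CPM in apical and 3.63 ± 2.10 CPM in body libraries. None of these 9 gene models is annotated in the sources used here.

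Among the named apical genes, the profile closest to *TLL1* was that of the ring gene *Slc*, which ranked 5 of 21682 with a difference of 0.46, followed by the ring genes *PoxA* (NVE14902, rank 11) and *NVE4712* (rank 12). *TBX5A* was closest to *PoxA* (rank 6, 0.52), then to *TSP1* (rank 8, 0.61) and the spot gene *NVE18750* (rank 12, 0.63). *TSP1* was closest to the ring genes *NVE14268* (rank 26, 0.53) and *NVE4712* (rank 30, 0.55), then to *TBX5A* (rank 39, 0.61). *ISX-like* ranked 2752 for *TBX5A*, 4383 for *TLL1* and 19348 for *TSP1* by this measure, which counts the size of the tissue difference. By Pearson's correlation, which does not count it, *NVE18750* and *ISX-like* were the nearest genes to *TBX5A*.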

How the data were processed

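Per library, the values deposited by the authors are unnormalised read counts of gene models. By the methods, adapters were removed with Trimmomatic 0.36, reads were mapped with STAR and counted with HTSeq 0.6. The genome build, the use of strand and the handling of overlapping or near-identical gene models are not given in the sources used here, so counts of such genes are uncertain.

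Groups and replicate numbers came from the sample titles, read with the tissue and stage labels. The quasi-likelihood test of edgeR 4.0.16 (under R 4.3.3) was applied after TMM normalisation and filterByExpr (minimum count 10, minimum total 15) over 4 groups of stage and tissue, calling genes where the adjusted *p*-value was under 0.05. Standard errors were derived from the fold change and the F statistic. The pooled tissue values came from a fit of 5 apical and 5 body libraries. Log2 CPM for profiles used a prior count of 2. The tests were run on simulated counts first. The genes named are the 3 genes, the 3 nearest profiles of each, and genes of the lists named in the study. The members and lists were chosen with earlier results of these data known. Alternatives were DESeq2 size factors, limma-voom (limma 3.58.1), the Wald test of DESeq2 1.42.0, no filter, halved counts, a fit of one tissue alone, stage as a covariate, a replicate block and leaving out each library. Library size without TMM was added after the data were seen.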

Additional observations from a re-analysis of the deposited data

Results flagged for a closer look

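Among the 5 body libraries, late planula body replicate 1 stood apart for *TLL1*, at 17.3 CPM, with a gap to the next library, divided by the range, of 0.843, above Dixon's critical value for 5 samples. The same library stood apart for the *TLL1* to *TSP1* count ratio, at 0.781, and for the *TLL1* to *TBX5A* count ratio, at 3.79. The *TLL1* count there, 239, lay within the 196 to 245 counts of the other body libraries. The counts of *TSP1* (306, against 678 to 1056) and *TBX5A* (63, against 191 to 496) and the library total were the lowest of the 5. Without the TMM factors the gap of the *TLL1* level, divided by the range, was 0.514, under the critical value. Of 12 sets of 5 libraries examined, chance alone would set a library apart in about 1 in 20. The 2 stages were combined in these sets, as a stage has too few libraries per tissue for such a check.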

How the results depend on the processing

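The apical over body log2 fold changes kept their sign under every alternative, which is no support for them, as the genes were chosen for this difference. In the mid-planula that of *TBX5A* was 2.86 without body replicate 1 and 3.38 without body replicate 2. The body stage difference of *TBX5A* passed the test with the DESeq2 Wald test (-1.26), no filter (-1.29), halved counts (-1.26) and library size without TMM (-1.57), and lay at -1.52 to -1.0 with each library left out. The interaction of *TLL1* had the other sign with limma-voom (0.070) and with the replicate block (0.019), and lay at -0.31 to 0.36 with each library left out, that of *TSP1* at -0.063 to 0.27. The *TBX5A* to *TSP1* difference lay at 0.57 to 1.03 and that of *TLL1* to *TBX5A* at -0.12 to 0.69. The apical stage difference of *TLL1* lay at 0.14 to 0.81, again with each library left out. The cause was not tested.

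Genes called between stages were 455 in the apical tissue, 571 in the body and 5 in the interaction. They were 1490, 1765 and 107 with DESeq2. The body and interaction counts were 1063 and 1 with limma-voom, and the interaction count was 10 without a filter. Fits of the apical tissue alone gave 225. Library size without TMM gave 728 and 3 for the apical tissue and the interaction, with the median of all genes moved by -0.36 (apical) and -0.33 (body). It moved the higher share of calls from 56.0% to 17.6% in the apical tissue and from 75.3% to 31.8% in the body. The late over mid-planula values of *TSP1*, *TLL1* and *TBX5A* were then -0.55, 0.052 and -0.49 in the apical tissue and -0.65, 0.086 and -1.57 in the body, and none but that of *TBX5A* in the body passed. Between the tissues, 2482 genes were called with the stages pooled (4313 with the block) and 931 in the mid-planula (1481 with DESeq2).

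With each library left out the counts were 0 to 669, 0 to 779 and 0 to 53. The apical count was 0 and 219 without mid-planula apical replicates 1 and 2, 61 without late planula apical replicate 3 and 198 without late planula body replicate 3. The body count was 55 and 0 without mid-planula body replicates 1 and 2, and 380 and 78 without late planula body replicates 2 and 3. The interaction count was 53 without mid-planula apical replicate 2, and 0 without mid-planula apical replicate 1, either mid-planula body replicate, late planula body replicate 3 or late planula apical replicate 3. Between the tissues the mid-planula count was 419, 476 and 495 without mid-planula apical replicate 2, body replicate 1 and body replicate 2. The late planula count, 2343, was 1366 without late planula body replicate 3 and 1386 without late planula apical replicate 1. Where 1 library was left in a group, it was assumed to vary like the other groups.

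The replicate block gave 45 genes in the interaction, and 66 (apical) and 105 (body) between stages in one tissue alone. The deviations of same-numbered libraries correlated at 0.16 in the mid-planula and at 0.24, 0.49 and -0.092 in the late planula, so the numbers were not taken as pairs. The block changed no call of the 3 genes.

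With Pearson's correlation in place of the root mean square difference, 1, 1 and 0 of the 3 nearest profiles of *TSP1*, *TLL1* and *TBX5A* were shared, and with a prior count of 0.5, 3, 3 and 2.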
